A study of Mus musculus with 8 samples.

Results

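The Wnt pathway was followed here through 50 genes in mouse palatal shelves, the outgrowths that join in the midline to form the roof of the mouth. The genes are 17 Wnt ligands, 10 Frizzled receptors, 5 co-receptors, 10 secreted antagonists, 6 targets and feedback genes, and 2 R-spondins. They were chosen by name, and every probe set annotated with exactly 1 of these symbols was taken. Of the 50 genes, 49 were found, on 99 of the 45037 probe sets of the array, and they stand among 18193 named genes in all. The signal of Tcf7 was not analysed here, though its promoter windows are counted below. Where a gene had several probe sets, the one with the highest mean signal over all arrays stands for the gene unless another is named.

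RNA came from mouse embryos of embryonic day 14.5, of a cross between C57BL/6 and SV129, and was hybridised to 8 Affymetrix arrays. In 4 samples, with replicate numbers 1, 3, 4 and 7, the genotype was R26Pax3/Pax3, called mutant below. This allele places Pax3, which encodes a transcription factor active in neural crest and myogenic progenitors, in the Rosa26 locus. The other 4, with replicate numbers 2, 6, 8 and 11, were wild type littermates. Values are listed in these orders throughout. The labels name no driver line, do not say which cells express the allele, and do not say whether a sample pools embryos, so the tests reflect only how these samples varied, which may be technical.

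Wnt proteins are secreted, lipid-modified signals. In the canonical branch a Wnt binds a Frizzled receptor together with Lrp5 or Lrp6, beta-catenin accumulates, and factors of the TCF/LEF family switch on targets such as Axin2. In the noncanonical branches, ligands such as Wnt5a and Wnt11 act through Frizzled and Ror receptors on cell shape and movement. Antagonists either bind the Wnt protein, as Sfrp proteins, Frzb and Wif1 do, or occupy the co-receptors, as Dkk1 does. R-spondins act through Lgr receptors to keep Frizzled proteins at the cell surface. In the palate, Wnt signals pass between epithelium and mesenchyme, and mice that lack Wnt5a, Wnt9b or Rspo2 can have cleft palate.

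The promoters of 3 genes that the text below singles out are shown, and no result rests on these sequences. Wnt11 and Fzd9 are the genes whose mutant and wild type arrays did not overlap on the main probe set at signals above the array median, and Axin2 is the general target of the canonical branch. Each sequence is the 250 bases before a RefSeq transcript start in GRCm38.p6, written 5′ to 3′ on the strand of the gene. Capitals mark a TCF/LEF core, searched on both strands in 4 forms. These were CTTTGAA and its variant CTTTGAT, with CTTTGTT as the third form and CTTTGTA as the last. Wnt11 has 2 such starts here, and the one that comes first by coordinate is shown. Its window holds a match, and that of the other start, at chr7:98838595-98838844, does not. The window shown is at chr7:98834862-98835111 on the plus strand. Fzd9 lies at chr5:135251048-135251297 on the minus strand and Axin2 at chr11:108920099-108920348 on the plus strand.
Wnt11: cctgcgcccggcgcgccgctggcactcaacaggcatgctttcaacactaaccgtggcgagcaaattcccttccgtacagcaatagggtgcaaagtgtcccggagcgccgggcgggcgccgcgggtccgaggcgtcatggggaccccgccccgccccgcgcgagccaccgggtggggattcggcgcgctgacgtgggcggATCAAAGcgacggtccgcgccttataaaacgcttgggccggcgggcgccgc
Fzd9: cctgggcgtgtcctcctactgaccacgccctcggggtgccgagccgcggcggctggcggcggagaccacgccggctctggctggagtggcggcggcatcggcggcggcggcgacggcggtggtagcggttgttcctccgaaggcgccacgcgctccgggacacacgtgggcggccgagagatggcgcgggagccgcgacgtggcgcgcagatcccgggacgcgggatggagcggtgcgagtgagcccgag
Axin2: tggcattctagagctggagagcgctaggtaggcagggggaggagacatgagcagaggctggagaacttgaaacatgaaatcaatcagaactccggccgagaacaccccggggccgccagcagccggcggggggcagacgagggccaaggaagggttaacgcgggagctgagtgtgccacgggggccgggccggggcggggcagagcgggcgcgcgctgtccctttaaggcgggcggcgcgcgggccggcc
The Wnt11 window holds 1 match, CTTTGAT on the opposite strand, and the other windows shown hold none of these letters. Promoters were found for 33 of the 50 genes, with 40 windows between them, and 5 windows (12.5%) held at least 1 match, those of Wnt11, Wnt5b, Fzd7, Dkk1 and Lef1. Among all 32851 promoter windows of the same length the share was 14.8%. A match is a description of the letters and shows no bound site.

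The genotype labels were borne out by Pax3 itself. On the main Pax3 probe set the mutant signals were 532, 559, 664 and 722. The wild type signals were 176, 142, 167 and 162, and the mutant was 1.83 higher on the log2 scale (limma adjusted p = 1.7e-05). The noncoding transcript of the targeted locus, Gt(ROSA)26Sor, read 12.8, 18.9, 30.3 and 17.2 against 318, 271, 389.7 and 371, and every mutant value was under the array median, which ranged from 43.5 to 44.8. Array pairs correlated between 0.968 and 0.981 on the log2 scale, and only 4 of 27021 probe sets tested were called, 2 higher and 2 lower in the mutant. The shelves gave signal for palatal mesenchyme, with 12 of 12 markers above the array median on at least 1 array and summed signals of 10539 to 11583 in mutant and 10549 to 11376 in wild type arrays. Marker lists of other tissues were unevenly represented. Osteoblast markers had lower means in the mutant for 8 of 8 genes (summed signal 13113 to 14888 against 15092 to 19528, without overlap), and epithelial markers had higher means for 14 of 18 (9795 to 12956 against 9133 to 10765). Skeletal muscle markers had lower means for 16 of 16 (907 to 7085 against 2983 to 7648), cartilage markers for 10 of 12 (2408 to 3946 against 3453 to 5201), and neuronal markers had higher means for 12 of 12 (1404 to 2317 against 737 to 2522). The muscle sum was lowest in mutant replicate 7, at 907, and the other mutant arrays had 3257, 5599 and 7085. Neuronal sums were lowest in wild type replicates 2 and 11, at 737 and 775, and highest in wild type replicate 6, at 2522. None of the markers on these lists was called, and their part in the values below was not tested.

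No Wnt pathway gene passed the test between genotypes. A probe set was tested where its mean signal over the 8 arrays lay above the 40th percentile of all probe sets, a signal of 25.4, and called at an adjusted p under 0.05 over all probe sets tested, in limma. Of the 99 probe sets, 76 were tested and 0 were called, where 0.0148% of all probe sets tested were called in either direction. The lowest adjusted p was 0.814. At an unadjusted p under 0.05 there were 7 of 76 (9.21%), against 4.86% of all probe sets tested. Sfrp1 gave 2 of the 7. The arrays of the genotypes did not overlap on 4 of 76 (5.26%), against 2.73% of all. In 2 of these the mutant arrays were higher, where the share of all probe sets was 1.39%, and in 2 they were lower, where it was 1.34%. Of the 4, those of Wnt5b and Nkd2 lay below the array median on all 8 arrays. Because the shelves were measured in bulk, fewer cells of a type and less RNA per cell cannot be told apart in any of these values.

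The differences between means were under 0.5 on the log2 scale for every gene tested. Of the 49 genes measured, 43 were tested and 0 called, against 0.0162% of all genes tested. Of these 43, 25 had a higher and 18 a lower mean in the mutant, and their median log2 fold change was 0.06, where it was -0.00307 over the 12339 genes tested. Fold changes are of log2(signal + 16), a scale that understates the change of dim genes. They lay between -0.44 and 0.46. The 95% interval of the difference lay within 1 on this scale for 42 of the 43 genes, and within 0.5 for 27. The exception at 1 was Lef1, whose interval reached 1.02. For dim genes, a change of 1 on this scale is more than a doubling or halving of the signal itself. A p that misses the threshold does not show that the genotypes are alike, and these intervals, which are not adjusted for the number of genes, give the sizes that the arrays allow.

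**Figure D1:**
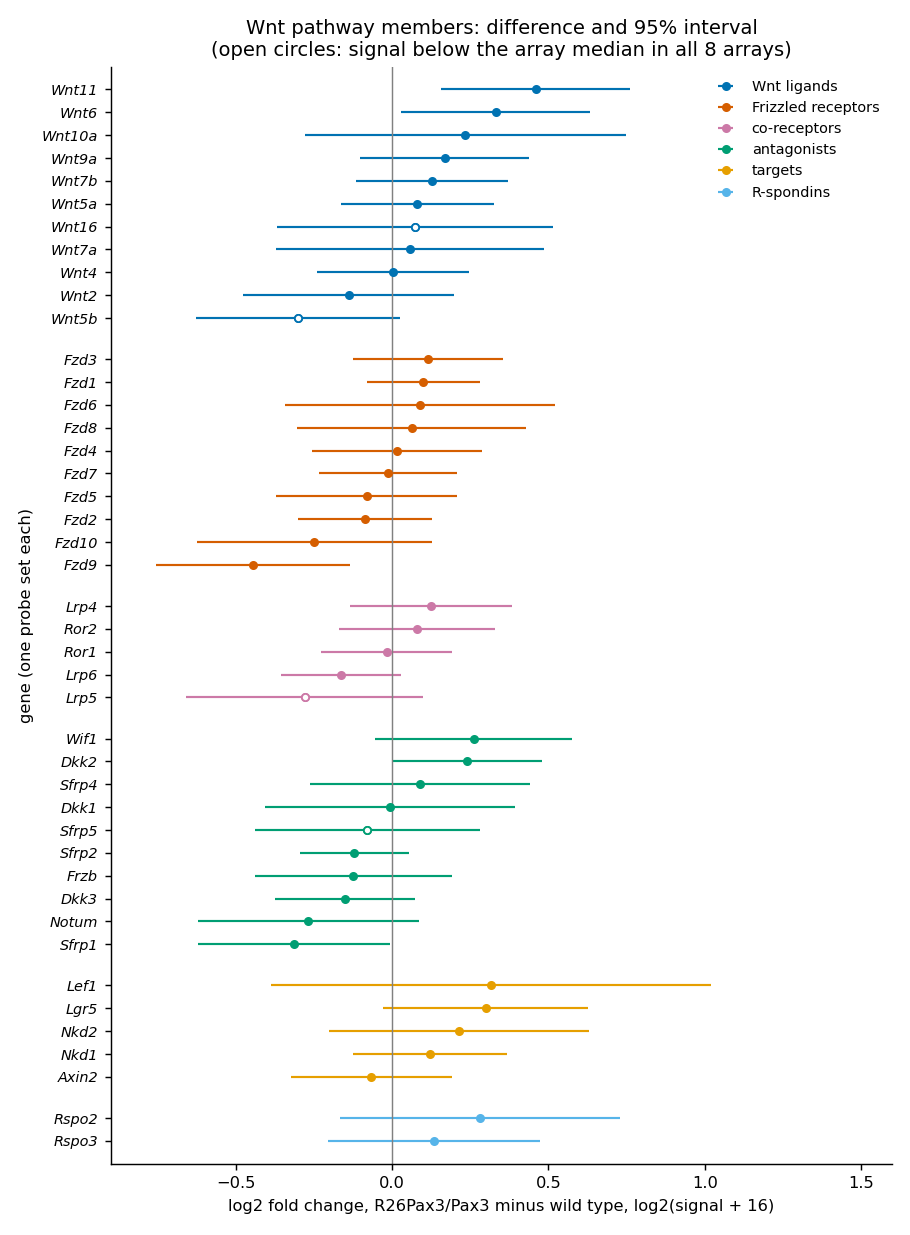
Log2 fold change (x axis, mutant minus wild type, on log2(signal + 16)) of each of the 43 genes tested (y axis), with its 95% interval from limma, n = 4 arrays per genotype, coloured by role. Open circles mark 4 genes whose signals lay below the array median on all 8 arrays. Most intervals include 0, Wnt11 is farthest to the right at 0.46 and Fzd9 farthest to the left at -0.44.

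Among the ligands, Wnt11 and Wnt6 showed the largest positive differences between mutant and wild type means. Of 17 ligands, 14 had a higher and 3 a lower mean, with a median log2 fold change of 0.08, which was 0.15 with the mean over the probe sets of each gene and 0.14 without mutant replicate 4. Only 11 of them were tested, 9 with a higher mean, against 49% of all genes tested. None was called, and 2 had an unadjusted p under 0.05, where the share over all genes tested was 5.58%.

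Wnt11, a ligand of the noncanonical branch that guides cell movements, read 292, 176, 192 and 234 in the mutant and 151, 157, 149.6 and 164 in wild type. All mutant arrays lay above all wild type arrays, which were close to each other, and the mutant arrays were spread more widely. The mutant mean was 1.44 times the wild type mean (224 ± 51.9 against 156 ± 6.43, SD, n = 4 each), or 0.46 on the log2 scale (95% interval 0.16 to 0.76, limma adjusted p = 0.819). Within the first and last 4 arrays deposited, each holding 2 arrays of a genotype, the differences were 0.52 and 0.40. Summed epithelial markers were 12783, 9795, 12211 and 12956 against 10765, 9133, 10449 and 9610. Mutant replicate 3 was the lowest mutant array for the markers and for Wnt11. Compared with wild type replicates 2 and 8, it had less marker signal and more Wnt11. Among mutant arrays, replicate 7 was highest for the markers and replicate 1 for Wnt11. The sum is weighted to the brightest markers. Of the 18 markers, 3 (Krt17, Pkp3 and Sfn) were higher in every mutant array and the others overlapped. Over all genes tested, the groups did not overlap for 3.22%. Whether a different share of epithelium has a part in the Wnt11 values was not tested.

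Wnt6, a ligand of surface ectoderm, read 80.5, 107, 90.1 and 87.6 against 63.6, 58.3, 88.7 and 68.3. Wild type replicate 8 reached into the mutant range, above mutant replicates 1 and 7. The difference on the log2 scale was 0.33 (95% interval 0.03 to 0.63, limma adjusted p = 0.995). Mutant replicate 3 was the highest mutant array for Wnt6 and the lowest mutant array for the summed epithelial markers. Wild type replicate 6 was the lowest of all 8 arrays for both. Whether a different share of epithelium has a part in the Wnt6 values was not tested.

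Wnt9a, known from joint formation, read 153, 128, 127 and 126 against 117, 93.3, 132 and 127. The groups overlapped broadly, with a log2 fold change of 0.17 (95% interval -0.10 to 0.44). Wnt5b read 19.5, 22.7, 23.8 and 19.9 against 35.7, 26.6, 31.7 and 27.0, lower in every mutant array. Each of these values was under the median of its array and no background level was measured, so no fold is given. Its second probe set, which was not tested, read 22.8, 25.1, 22.3 and 31.1 against 36.6, 15.3, 21.2 and 20.9 and did not separate the genotypes.

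Wnt5a, the noncanonical ligand of palatal mesenchyme, was read by 4 probe sets that all had a slightly higher mean in the mutant. The main one gave 449, 416, 415 and 545 against 450.5, 365, 426 and 479, with a log2 fold change of 0.08 (95% interval -0.16 to 0.32). The others gave 0.10, 0.14 and 0.27, and the interval of the last was -0.01 to 0.56. A difference of Wnt5a larger than 0.56 on this scale thus lay outside the interval of each probe set.

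Wnt4, a ligand of many epithelia, gave different answers on its probe sets. The main one read 188, 195, 159 and 185 against 201, 152, 197 and 178, a log2 fold change of 0.00. The second read 169, 107, 168 and 133 against 124, 87.4, 119 and 96.0, a log2 fold change of 0.37 (95% interval 0.03 to 0.72, limma adjusted p = 0.995), with overlap between the groups. The probe sets of Wnt4 thus gave different values, and the main one showed equal means.

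Of the other ligands tested, Wnt10a, a ligand of tooth and hair buds, gave 113, 109, 98.2 and 60.8 against 90.9, 98.6, 91.6 and 40.2. Mutant replicate 7 and wild type replicate 11 were the low arrays of their groups, and the log2 fold change was 0.23 (95% interval -0.28 to 0.75). The log2 fold change was 0.13 for Wnt7b (111, 109.9, 104 and 122 against 118, 93.1, 97.2 and 95.5), a ligand of lung and skin epithelium. It was 0.06 for Wnt7a (63.0, 34.1, 30.0 and 31.8 against 28.7, 34.0, 36.4 and 47.5), the ligand of dorsal limb ectoderm, and -0.14 for Wnt2 (69.7 ± 11.3 against 78.7 ± 15.6, SD, n = 4 each), a ligand of lung mesenchyme. The groups overlapped for each. Wnt16 lay below the array median on all 8 arrays, and no size is given for it. The ligands Wnt1, Wnt2b, Wnt3, Wnt3a, Wnt9b and Wnt10b were too dim to be tested and lay below the medians of all arrays on every probe set. A dim signal cannot be told here from an absent one. For Wnt9b, a ligand of facial ectoderm, the highest signal in any array was 16.5.

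Means of the Frizzled receptors were higher in the mutant for as many genes as they were lower, and the groups did not overlap for Fzd9. All 10 were tested, 5 had a higher and 5 a lower mean, and their median log2 fold change was 0.0016. Without wild type replicate 6, 3 of 10 had a higher mean. None was called, and 1, Fzd9, had an unadjusted p under 0.05, where the share over all genes tested was 5.58%.

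Fzd9 read 61.6, 75.5, 76.6 and 52.4 in the mutant and 101, 94.2, 78.4 and 110.4 in wild type. Every mutant array lay below every wild type array, though mutant replicate 4 and wild type replicate 8 were nearly equal. The wild type mean was 1.44 times the mutant mean (mutant 66.5 ± 11.6 against 96.1 ± 13.5, SD, n = 4 each), a difference of -0.44 on the log2 scale (95% interval -0.75 to -0.13, limma adjusted p = 0.904). The differences were -0.28 and -0.61 within the first and last 4 arrays. Only 1 probe set reads Fzd9, so no second probe set bears on it. The summed osteoblast markers were also lower in every mutant array, with 14888, 14149, 13113 and 14311 against 17954, 16149, 15092 and 19528. Among wild type arrays, replicate 8 was lowest and replicate 11 highest for the markers and for Fzd9, while among mutant arrays replicate 4 was lowest for the markers and highest for Fzd9. The part of bone cells in the Fzd9 values was not tested.

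Fzd1 and Fzd2, receptors that mice need jointly for palate closure, differed little. Fzd1 read 1544, 1752, 1467 and 1536 against 1390.1, 1350.1, 1531 and 1599.9, a log2 fold change of 0.10 (95% interval -0.08 to 0.28). Its other probe set gave -0.07. Fzd2 read 1227, 1227, 1210.5 and 1182 against 1541, 1156, 1123 and 1377, a log2 fold change of -0.09 (95% interval -0.30 to 0.13). Its other probe sets gave -0.05 and 0.20. The mutant arrays of Fzd2 were close together on the main probe set, and the wild type arrays lay on both sides of them.

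Fzd3, a receptor that guides axons, read 399, 372, 375 and 391 against 326, 396, 411 and 292. All mutant arrays fell between the lowest and highest wild type arrays, and the log2 fold change was 0.12 (95% interval -0.12 to 0.36). Other tested probe sets of Fzd3 lay between -0.11 and 0.02. Fzd10 read 48.1, 46.6, 51.2 and 29.5 against 71.1, 43.8, 58.0 and 47.4, near the array medians. Its log2 fold change was -0.25 (95% interval -0.62 to 0.13), with broad overlap. On their main probe sets the remaining receptors lay between -0.08 for Fzd5 and 0.09 for Fzd6, with 0.02 for Fzd4, -0.01 for Fzd7 and 0.06 for Fzd8. Further tested probe sets gave -0.17 for Fzd4, 0.28 for Fzd6, 0.29 for Fzd7 and 0.21 for Fzd8.

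Among the co-receptors, Lrp6 had a lower mean in the mutant and Lrp4 and Ror2 a higher one, with overlap between the genotypes. Of 5, 2 had a higher and 3 a lower mean, with a median log2 fold change of -0.02. Its sign was not stable, at 0.03 with the mean over probe sets and between -0.09 and 0.03 when 1 array was left out. None was called and none had an unadjusted p under 0.05. Lrp6, the main co-receptor of the canonical branch, read 394, 498, 441 and 448 against 497, 487, 529 and 482 on the main probe set. Mutant replicate 3 lay within the wild type range and the other 3 below it, and the difference was -0.16 on the log2 scale (95% interval -0.35 to 0.03). The other probe set did not follow and gave 0.02 (95% interval -0.19 to 0.24).

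Lrp4, which binds sclerostin and Sostdc1, read 94.3, 121, 101 and 103 against 95.9, 83.1, 108 and 91.6, a log2 fold change of 0.12. Ror2, a receptor of Wnt5a, read 182, 223, 186 and 204 against 178, 168, 227 and 179, a log2 fold change of 0.08 (95% interval -0.17 to 0.33), and its second probe set gave 0.17. Neither gene separated the genotypes. Ror1, the relative of Ror2, gave -0.02 on its main probe set. Lrp5 read 25.4, 36.8, 19.2 and 25.9 against 39.2, 25.7, 39.9 and 38.4, below the array medians on all 8 arrays, so no size is given for it.

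**Figure D2:**
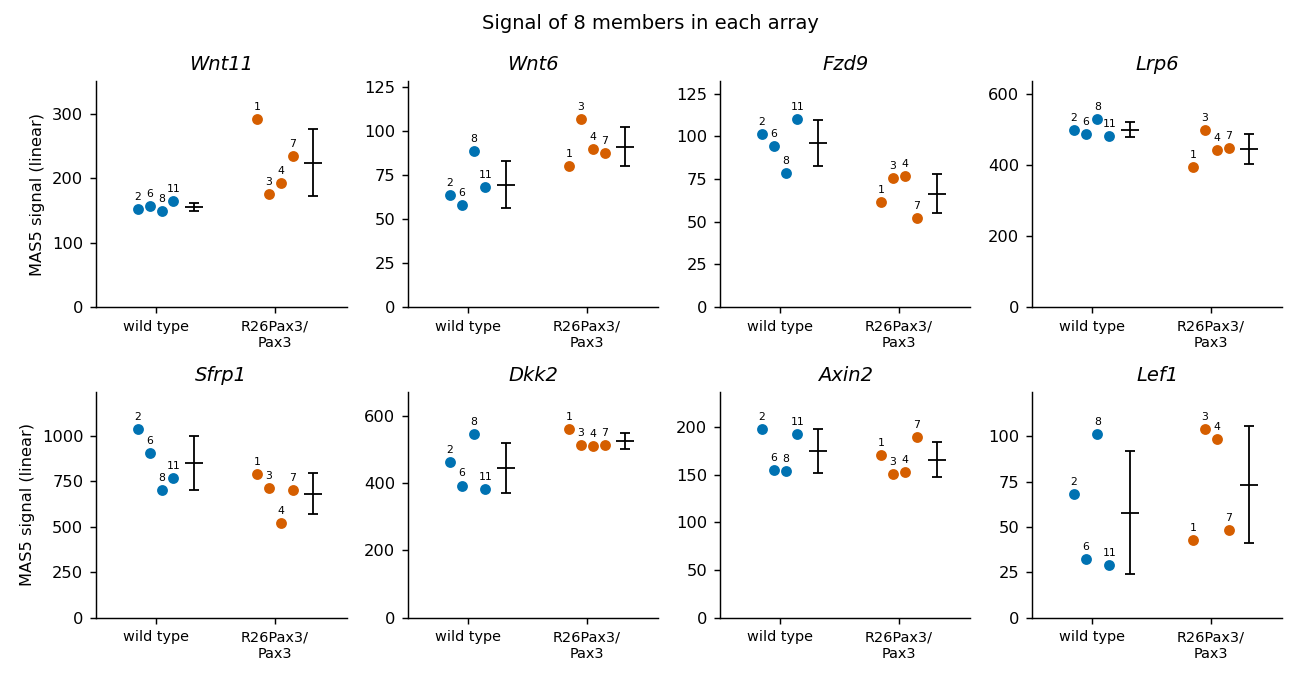
MAS5 signal on a linear axis that starts at 0 (y axis) for 8 genes in each array, by genotype (x axis), with the replicate number beside each point and the mean ± SD of the 4 arrays as a black bar. The groups do not overlap for Wnt11 (higher in the mutant) and Fzd9 (lower), and they overlap for the other 6, with Lef1 the most scattered within a genotype.

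Among the antagonists, 3 of 5 Sfrp1 probe sets had lower means in the mutant, while Dkk2 and Wif1 had higher ones. All 10 were tested, 3 with a higher and 7 with a lower mean, and the median log2 fold change was -0.10. None was called, and 2, Sfrp1 and Dkk2, had an unadjusted p under 0.05, where the share over all genes tested was 5.58%.

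Sfrp1, a secreted protein that binds Wnt ligands, was read by 5 probe sets that gave different values. The main one read 792, 711, 523 and 700.1 in the mutant and 1035, 903, 700.2 and 767 in wild type. The groups overlapped, since wild type replicates 8 and 11 lay below mutant replicate 1. The means were 682 ± 113 against 851 ± 149 (SD, n = 4 each), with a log2 fold change of -0.31 (95% interval -0.62 to -0.01, limma adjusted p = 1.00). It was -0.08 and -0.55 within the first and last 4 arrays, and -0.20 without mutant replicate 4.

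A second Sfrp1 probe set read 489, 668, 524 and 508 against 703, 840.0, 630.3 and 694, which is -0.38 on the log2 scale (95% interval -0.63 to -0.13, limma adjusted p = 0.814). This was the lowest adjusted p of all 76 probe sets, and only mutant replicate 3 reached into the wild type range. The other 3 probe sets gave 0.00, 0.04 and -0.13. The spread between probe sets, 0.42 on the log2 scale, was the widest of the 20 genes with several tested, and 2 of the 5 showed a difference within 0.05 of 0.

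Dkk2, which binds Lrp5 and Lrp6, read 559, 512, 510.5 and 514 against 461, 392, 544 and 383. The mutant arrays were close together, and wild type replicate 8 was the one wild type array among them. The difference on the log2 scale was 0.24 (95% interval 0.00 to 0.48, limma adjusted p = 1.00). Wif1, which binds Wnt proteins outside the cell, read 377, 434, 510.4 and 448 against 293, 313, 410.2 and 466. Wild type replicates 8 and 11 lay within the mutant range, and the log2 fold change was 0.26 (95% interval -0.05 to 0.58).

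Notum, an enzyme that removes the lipid from Wnt proteins and is itself a target of the pathway, read 57.4, 64.2, 55.7 and 33.3 against 60.9, 70.0, 71.6 and 59.5. Mutant replicate 7 was the lowest, and the log2 fold change was -0.27 (95% interval -0.62 to 0.09), or -0.12 without that array. Dkk1, the best known Lrp6 antagonist, read 188, 252, 159 and 163 against 131, 226, 177 and 238, a log2 fold change of -0.01 (95% interval -0.41 to 0.39). Its arrays ranged widely in both genotypes without separating them. A second Dkk1 probe set gave 0.23 (95% interval -0.20 to 0.67).

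Sfrp2 read 5172, 4784, 4564 and 5040.5 against 5788, 5275, 4612 and 5649.5, a log2 fold change of -0.12 (95% interval -0.30 to 0.05), and the groups overlapped. Frzb, a Wnt-binding protein of cartilage, gave -0.12 and -0.06 on its 2 probe sets. Dkk3 gave -0.15 and -0.05, and Sfrp4 gave 0.09. Sfrp5 lay below the array median on all 8 arrays, and no size is given for it.

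**Figure D3:**
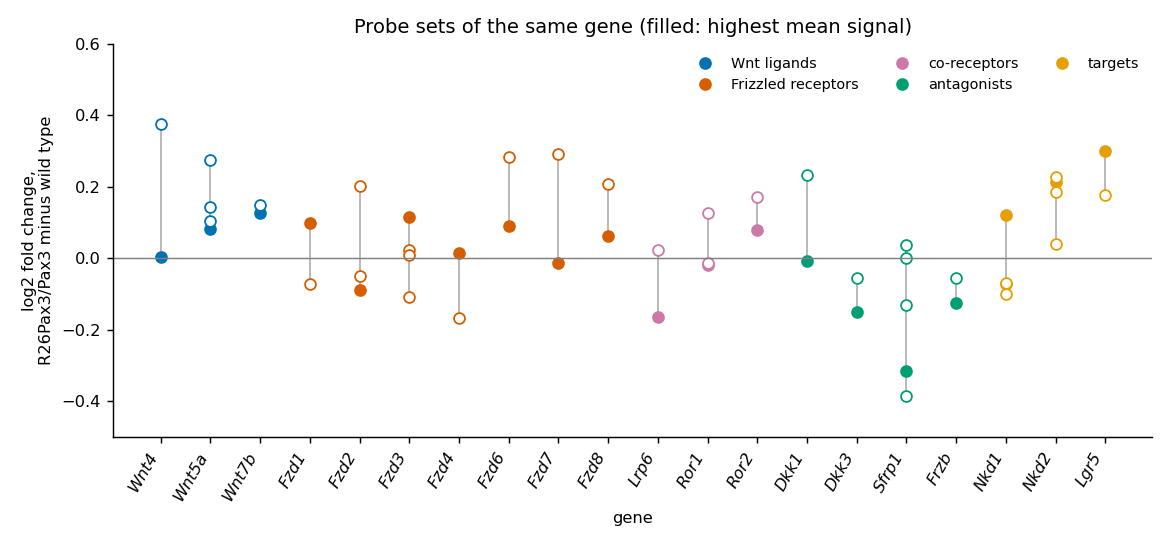
Log2 fold change (y axis, mutant minus wild type) of every tested probe set of the 20 genes (x axis) with more than 1 tested, with n = 4 arrays per genotype. Filled circles are the probe sets with the highest mean signal, and grey lines join the probe sets of a gene. All probe sets lay on 1 side of 0 for 10 of the 20 genes, and the probe sets of Sfrp1 spread the most, from -0.38 to 0.04.

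Among the targets, Axin2 had nearly equal means, and Lef1, Lgr5, Nkd1 and Nkd2 had higher means in the mutant, with overlap between the genotypes. Of 5 measured, 4 had a higher and 1 a lower mean, with a median log2 fold change of 0.21, which was 0.05 without wild type replicate 2. None was called and none had an unadjusted p under 0.05.

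Axin2, a scaffold of the complex that degrades beta-catenin and a feedback target in nearly all responding cells, read 170.4, 151, 152 and 189.7 against 197, 155, 154 and 192. The genotypes covered almost the same range. The means were 166 ± 18.2 against 175 ± 23.2 (SD, n = 4 each), with a log2 fold change of -0.07 (95% interval -0.32 to 0.19, limma adjusted p = 1.00), and it was 0.05 and -0.18 within the first and last 4 arrays. A second probe set, too dim to be tested, read 27.6, 25.2, 27.7 and 34.1 against 11.4, 19.1, 13.3 and 25.3. The lowest mutant value was just under the highest wild type value, and each was below the array median.

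Lef1, a transcription factor through which beta-catenin acts, read 43.1, 104, 98.4 and 48.3 in the mutant and 68.4, 32.5, 101 and 29.1 in wild type. It was high in mutant replicates 3 and 4 and wild type replicate 8, and low in the others of both genotypes except wild type replicate 2. The spread within genotypes was 0.60 (SD, log2 scale), the widest of the 43 genes tested, where the median was 0.19. The log2 fold change was 0.32 (95% interval -0.39 to 1.02, limma adjusted p = 1.00), and it ranged from 0.12 without wild type replicate 11 to 0.58 without wild type replicate 8. Mutant replicate 3 and wild type replicate 8 also had the highest summed signal of 8 tooth germ markers besides Lef1, 930 and 909, where the other arrays lay between 559 and 768. Mutant replicate 4, also high for Lef1, had 761. The largest parts of the sum came from Shh and Dlx2, with 418.5 and 312.7 in mutant replicate 3 and 392 and 245.4 in wild type replicate 8. Of the enamel and dentin genes on the list, Amelx, Enam and Dspp were below the median of every array, and so was Fgf4. Ambn, an enamel matrix gene, was above it on all 8 arrays and lower in every mutant array, with 85.2, 50.4, 50.8 and 64.6 against 97.1, 114, 120.1 and 119, an order that Lef1 did not share. A second Lef1 probe set, too dim to be tested, read 18.3, 46.3, 31.1 and 9.6 against 20.0, 2.3, 18.4 and 4.2, with overlap. It lay below the array median on 7 of the 8 arrays. The part of tooth germ tissue in the Lef1 values was not tested.

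Lgr5, the R-spondin receptor and stem cell marker, read 509, 516, 399 and 382 against 389, 309, 472 and 298. Wild type replicates 2 and 8 lay within the mutant range, and the log2 fold change was 0.30 (95% interval -0.03 to 0.63). A second tested probe set of Lgr5 gave 0.18. Nkd1, which restrains Dishevelled, read 245, 246, 303 and 306 against 214, 258, 252 and 279.8, with a log2 fold change of 0.12, and its other 3 probe sets had lower means in the mutant (-0.07, -0.10 and -0.07). The groups overlapped on the main probe set.

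Nkd2, its relative, read 109, 125, 94.8 and 87.1 against 52.8, 119, 97.6 and 89.6, a log2 fold change of 0.21 that was 0.02 without wild type replicate 2. Further tested probe sets of Nkd2 gave 0.04 and 0.18, with overlap. Another separated the genotypes, with 35.8, 35.7, 36.4 and 36.2 against 31.6, 25.5, 30.1 and 26.7. These values all lay below the array medians, so no size is given.

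Both R-spondins had a higher mean in the mutant, and neither passed. Rspo2, a craniofacial and limb signal, read 111, 160.4, 116 and 78.2 against 83.0, 90.5, 131 and 66.4, a log2 fold change of 0.28 (95% interval -0.17 to 0.73), or 0.13 without mutant replicate 3. Mutant replicate 3 was the highest and mutant replicate 7 lay below 3 wild type arrays. Rspo3 read 188, 264, 275 and 214 against 204, 238, 254 and 158, a log2 fold change of 0.14 (95% interval -0.20 to 0.47), or 0.0080 without wild type replicate 11, and the groups overlapped.

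**Figure D4:**
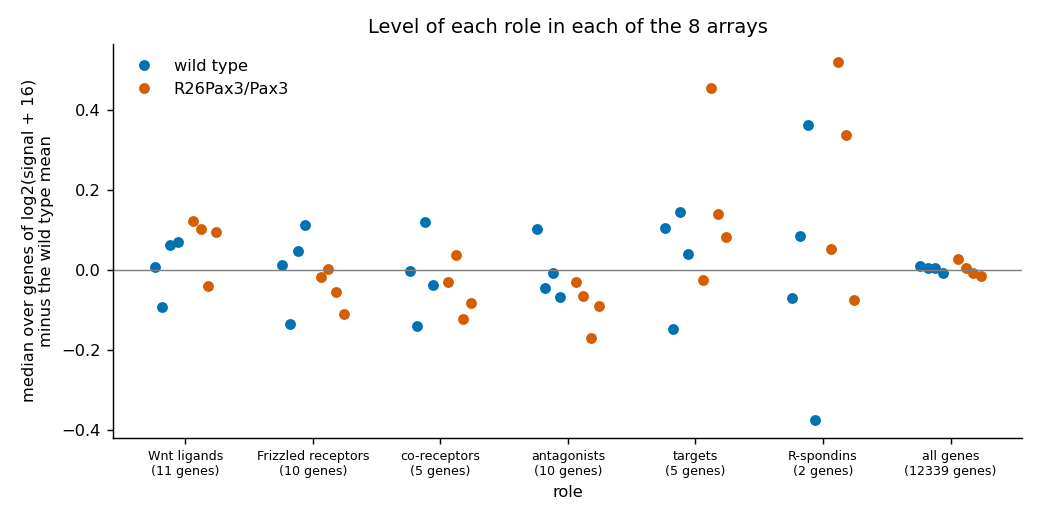
Median over the genes tested of each role of log2(signal + 16) minus the wild type mean of the gene (y axis), for each of the 8 arrays (points), by role and genotype (x axis), with all 12339 genes tested at the right. The genotypes overlap in every role. The R-spondins and targets, with few genes each, scatter the most, mutant replicate 3 being highest in both at 0.52 and 0.45.

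Of the other pathway genes, 82 were listed, 77 were measured and 62 tested. None was called, 30 of the tested had a higher and 32 a lower mean, and their median log2 fold change was -0.00582. At an unadjusted p under 0.05 there were 5, against 5.58% of all genes tested. The groups did not overlap for 2, against 3.22% of all genes tested. Sostdc1, a secreted antagonist of Wnt and BMP signals, read 1207, 1684, 1353 and 1158 against 787, 573, 1217 and 557, a difference of 0.83 on the log2 scale (limma adjusted p = 0.602), with wild type replicate 8 above mutant replicates 1 and 7. Bmp4, a BMP ligand that is also a Wnt target in some tissues, read 450.2, 543, 534 and 445 against 370.1, 375, 411 and 348, a difference of 0.37 (limma adjusted p = 0.602), without overlap. Kremen1, a receptor for Dkk proteins, was lower in all mutant arrays, if only just for mutant replicate 7 and wild type replicate 6, with 127, 138, 146 and 152 against 165, 152, 185 and 165 and a log2 fold change of -0.22 (limma adjusted p = 1.00).

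Gpc3, a proteoglycan of the cell surface, had the most negative difference, -0.70 (limma adjusted p = 1.00). It read 1277, 1101, 1094 and 1285 against 3011, 1319, 1056 and 3308, high in wild type replicates 2 and 11 alone, and over the first 4 arrays deposited the difference was 0.01, against -1.40 over the last 4.

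By place in the pathway, 1 of 12 tested membrane genes had a higher mean, and the farthest from 0 was Celsr1, a cadherin of planar cell polarity (109.6, 154, 126 and 84.2 against 193, 126, 195 and 184, log2 fold change -0.51, limma adjusted p = 0.918). The other 11 lay between -0.22 and 0.03. Of 31 tested genes of the cytoplasm and nucleus, 18 had a higher mean, and all lay between -0.22 and 0.18. Among them, beta-catenin itself, Ctnnb1, had 0.04 (95% interval -0.13 to 0.22) and the scaffold Apc 0.02. Wls, the carrier that Wnt proteins need for secretion, had 0.02 (95% interval -0.19 to 0.22) and Porcn, the enzyme that attaches their lipid, -0.01. Of 10 tested further targets, 6 had a higher mean. Tnfrsf19 had -0.21 (limma adjusted p = 0.995), and the cell cycle targets Ccnd1 and Myc had -0.01 and 0.01.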

How the data were processed

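The measurements deposited by the authors are 1 intensity per probe set and array, on a linear scale. They come from MAS5, a tool named without a version in the submitters' processing notes. Each array holds 1 sample, labelled from 6 µg of total RNA. The trimmed mean signal was 149.5 on every array, so the arrays share a common scale and a change shared by most genes would be hidden. The 64 control probe sets were left out. Of the other 45037 probe sets, 34945 had a single symbol in the array's annotation, 932 several and 9160 none, and no gene was named from one with several.

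Signals were transformed to log2(signal + 16) and fitted with limma 3.58.1 (lmFit, eBayes with an intensity trend) in R 4.3.3, without covariates, over the 27021 probe sets above the 40th percentile of the mean. P-values were adjusted by Benjamini-Hochberg over all of these. Intervals are limma's 95% intervals. The number of arrays, 4 per genotype, limits the precision. The script was tested on simulated data.

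The genes and lists were chosen with earlier results of these data known. Values in every array were given for up to 4 genes per role by smallest p, for genes whose groups did not overlap on a tested probe set and for those whose probe sets differed by more than 0.5. The text adds Axin2, Wnt5a, Wnt4, Wnt10a, Wnt9b, Wnt2, Wnt7a, Wnt7b, Fzd2, Dkk1, Sfrp2, Kremen1, Gpc3, Ctnnb1, Ambn and other pathway genes, named for their roles or after their values were seen. Lists are described by counts and medians, with no set test. The alternatives tried were the pseudocount, the filter, quantile normalization, no trend, deposit order as a block, the mean over probe sets, and leaving out each array.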

Additional observations from a re-analysis of the deposited data

Results flagged for a closer look

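On the main probe set of 50 genes, the 43 tested Wnt pathway genes and 7 others with values in every array, 100 groups of 4 arrays were checked for a sample far from the other 3. The measure was the gap to its neighbour over the range of the group on the log2 scale, against Dixon's 95% critical value. Chance flags about 5% of such groups, and 8 were found. Mutant replicate 1 lay above the other mutant arrays for Wnt9a (gap 0.897 of the range), Dkk2 (0.929), Ror1 (0.847) and Wnt7a (0.842), and mutant replicate 7 for Wnt16 (0.835). Wild type replicate 6 lay below the other wild type arrays for Lrp5 (0.907) and Celsr1 (0.853), and wild type replicate 11 for Wnt10a (0.902). The signals of Wnt16 and Lrp5 were below the array median throughout.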

How the results depend on the processing

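Under 15 alternative settings, 0 genes of the Wnt pathway and 0 of the other pathway genes were called, and the lowest adjusted p of a Wnt pathway gene followed was 0.496. Of 25 genes followed, Pax3 and Gt(ROSA)26Sor included, 24 kept their sign in every setting. The exception was Nkd1, at -0.030 with the mean over its probe sets, a setting that adds 3 probe sets with lower means. The count of calls over all probe sets was 4 in the other settings and between 4 and 9 when 1 array was left out, with 9 without mutant replicate 3. The median of the targets lay between 0.052 and 0.282 when 1 array was left out, lowest without wild type replicate 2. The count of Frizzled receptors with a higher mean, followed after the data were seen, lay between 3 and 5 when 1 array was left out and between 5 and 6 otherwise, lowest without wild type replicate 6. Of 23 Wnt pathway genes followed, 16 moved by over 1.5 times when 1 array was left out, and Wnt11, Wnt6, Wnt5b, Fzd9, Lrp5, Dkk2 and Lgr5 did not. In these cases the cause was not tested. The ligands with a higher mean, likewise followed after the data were seen, numbered between 10 and 14 of 17 when 1 array was left out. No paired analysis was made, because the labels pair no mutant sample with a wild type sample. Signals below the array median limit what can be said of 10 of the 49 genes.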
